A study of Homo sapiens with 12 samples.

Results

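Transcript counts of 33 genes that take up glucose, break it down, handle lactate, and store or release glycogen were examined in human cardiomyocytes on a conductive and a non-conductive scaffold. The genes were chosen by name from the textbook pathway and matched to the gene names of the deposited count table. All 33 were found among its 60583 gene names, and all 33 passed the filter on low counts. The cells were cardiomyocytes differentiated from wild-type RUES2, an established human embryonic stem cell line, kept in RPMI medium with B27 supplement and insulin. From day 50 they spent 3 days on an electrospun fibre mat, either of 8% PVA (poly(vinyl alcohol), which does not conduct) or of PEDOT:PSS, a conducting polymer blend, in PVA at 9.75% by weight; these groups are called PVA and PEDOT here. Each scaffold had 3 biological replicates, numbered 1, 2 and 3, and each replicate had 2 technical libraries, which gave 12 libraries in all. Total RNA was sequenced after removal of ribosomal RNA.

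The technical libraries of a replicate were summed, so the comparisons rest on 6 sums. Libraries held 19.12 to 30.95 M counts and sums 44.49 to 57.49 M counts. The labels do not say whether the replicates were separate differentiations or whether equal numbers mark a shared culture. Each p-value therefore applies to these samples only. In the edgeR tests it rests on a spread drawn partly from all genes. The main fits with replicate number had 2 residual degrees of freedom and a prior of 11.96 from all genes. Levels are CPM, a gene's counts for each M counts of the library, with library totals scaled by edgeR's TMM factors. All 6 cardiomyocyte markers examined were present, with MYH6 at 15275 to 21753 CPM. Of 7 skeletal muscle markers, MYF5 and PAX7 were at 0 in all sums. MYOD1 and MYOG were low but present in every sum, at 0.914 to 1.81 and 0.303 to 0.646 CPM. The PVA sum numbered 2 had the lowest level of the 6 sums for 16 of the 33 genes, and its technical library 2 was the lowest of the 12 libraries for 15 of them. In bulk RNA, fewer cells of a type and less RNA per cell cannot be told apart.

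Glycolysis splits glucose into pyruvate in the cytosol and yields ATP without oxygen. Glucose enters through transporters of the SLC2A family, is trapped by hexokinase, committed by phosphofructokinase and converted by a chain of enzymes to pyruvate, which lactate dehydrogenase can reduce to lactate. Glycogen is the branched glucose store that glycogen synthase builds and glycogen phosphorylase takes apart. Several steps have paralogous enzymes, and muscle or heart favours some of them. SLC2A4 (the insulin-responsive transporter), HK2, PFKM, PFKFB2, ALDOA, PGAM2, ENO3, LDHB, SLC16A1 and PYGM were taken as the muscle or heart isoforms. This label is a choice made for the comparison, and the other isoforms of these families, such as LDHA and SLC16A3, are not confined to nonmuscle cells. Maturing heart muscle is known for shifting from glycolysis to fatty acid oxidation, and many glycolytic genes are known targets of the oxygen-sensing factor HIF, whose known binding sites include the letters ACGTG.

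Per kilobase of exon, GAPDH, which oxidises glyceraldehyde phosphate, was the most abundant member with 1724 ± 233 CPM per kb (SD over 6 sums), followed by the triose isomerase TPI1 at 334 ± 26.6. The next 4 were LDHA at 225 ± 57.8, the pyruvate kinase PKM at 215 ± 13.7, ENO1 at 177 ± 48.2 and PGK1 at 168 ± 36.9 CPM per kb, and each differed from the next by less than the larger of their SDs. At the low end were the regulatory kinase PFKFB2 at 5.39 ± 1.73, the liver-type phosphofructokinase PFKL at 8.505 ± 1.02 and PFKFB3 at 9.51 ± 1.69 CPM per kb. Among glucose transporters SLC2A3 (61.7 ± 12.5) and SLC2A1 (45.95 ± 20.6) overlapped on this per-length scale. SLC2A4 (27.1 ± 5.82) had the lowest mean, but its sums (18.6 to 33.2) overlapped those of SLC2A1 (17.8 to 74.7).

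The levels of ALDOA and LDHB are lower bounds. In the annotation, 43.3% of the exon bases of ALDOA (chromosome 16, 30064164 to 30070457, plus strand, hg38) are shared with the readthrough gene AC093512.2 on the same strand, and 33.4% of those of LDHB (chromosome 12, 21635342 to 21757857, minus strand) with AC010197.2. Of the coding bases, 93.8% were shared for ALDOA and 93.5% for LDHB, and the counting command left out reads that overlap more than 1 gene. The low values of 15.6 ± 1.58 CPM per kb for ALDOA and 16.4 ± 2.54 for LDHB therefore do not rank these enzymes against the others, although each can be compared between samples. PGAM1 was the member with the largest share of counts in near-identical copies, equal to 1.43% of its own, led by PGAM1P8.

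**Figure D1:**
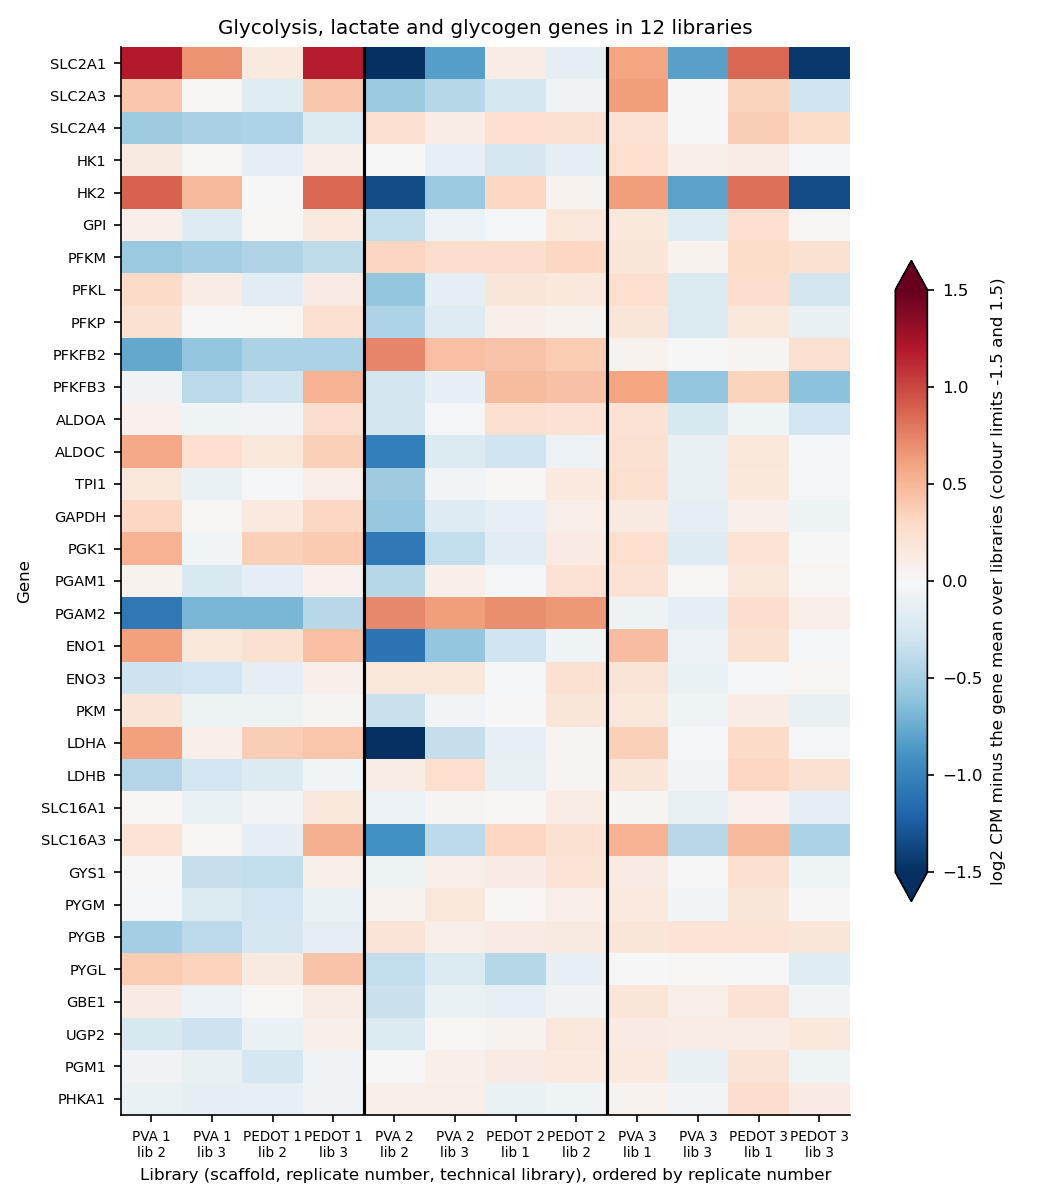
Levels of the 33 genes (rows) in the 12 libraries (columns, grouped by replicate number between the black lines), as log2 CPM minus each gene's mean over libraries; red is above and blue below that mean, with colours capped at the limits on the scale. The muscle genes PFKM, PFKFB2 and PGAM2 are blue in the 4 libraries numbered 1, and SLC2A1 and HK2 change colour between technical libraries of the same replicate.

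The first comparison asked whether the conductive scaffold changed these genes. No member passed the test between PEDOT and PVA: 0 of 33 were called by edgeR at an adjusted p of 0.05 (quasi-likelihood test), against 0% of the 21298 genes tested (0 genes), and 0 of 33 also at an unadjusted p under 0.05 (0.892% of all genes). DESeq2 called 0 members in either design. With replicate number as a block in the model, 0 of 33 members passed, against 0.268% of all genes (0.0704% higher and 0.197% lower on PEDOT). At an unadjusted p under 0.05 in that paired fit stood 7 of 33 (8.32% of all genes): SLC2A4, GPI, PFKFB3, PGK1, PGAM2, SLC16A3 and UGP2, all with positive log2 fold changes.

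Of the cell type markers examined, the paired edgeR fit called 2 between scaffolds, the smooth muscle genes ACTA2 (log2 difference -0.40 ± 0.07, adjusted p = 0.0334) and RGS5 (-0.46 ± 0.06, adjusted p = 0.00795), both lower on PEDOT, and 0 of 6 cardiomyocyte markers. Their part in the members' values was not tested.

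The direction of the small differences was uneven. In both fits 29 of 33 members had a log2 fold change above 0 (PEDOT minus PVA), against 48.1% of all genes unpaired and 48.8% paired, and the 4 below 0 were SLC2A3, HK1, PYGM and PYGL. The median over the members was 0.07 unpaired and 0.08 paired, beside -0.0060 and -0.0037 over all genes tested. Within replicate numbers the members' median was 0.03 for number 1, 0.21 for number 2 and -0.0050 for number 3, so most of the offset came with number 2, whose PVA sum was low. Members higher on PEDOT in 3 of 3 pairs were SLC2A4, GPI, PFKP, PGK1, GYS1 and UGP2 (6 of 33, against 13.3% of all genes), and HK1 and PYGL were lower in 3 of 3 (2 of 33, against 15.6%).

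**Figure D2:**
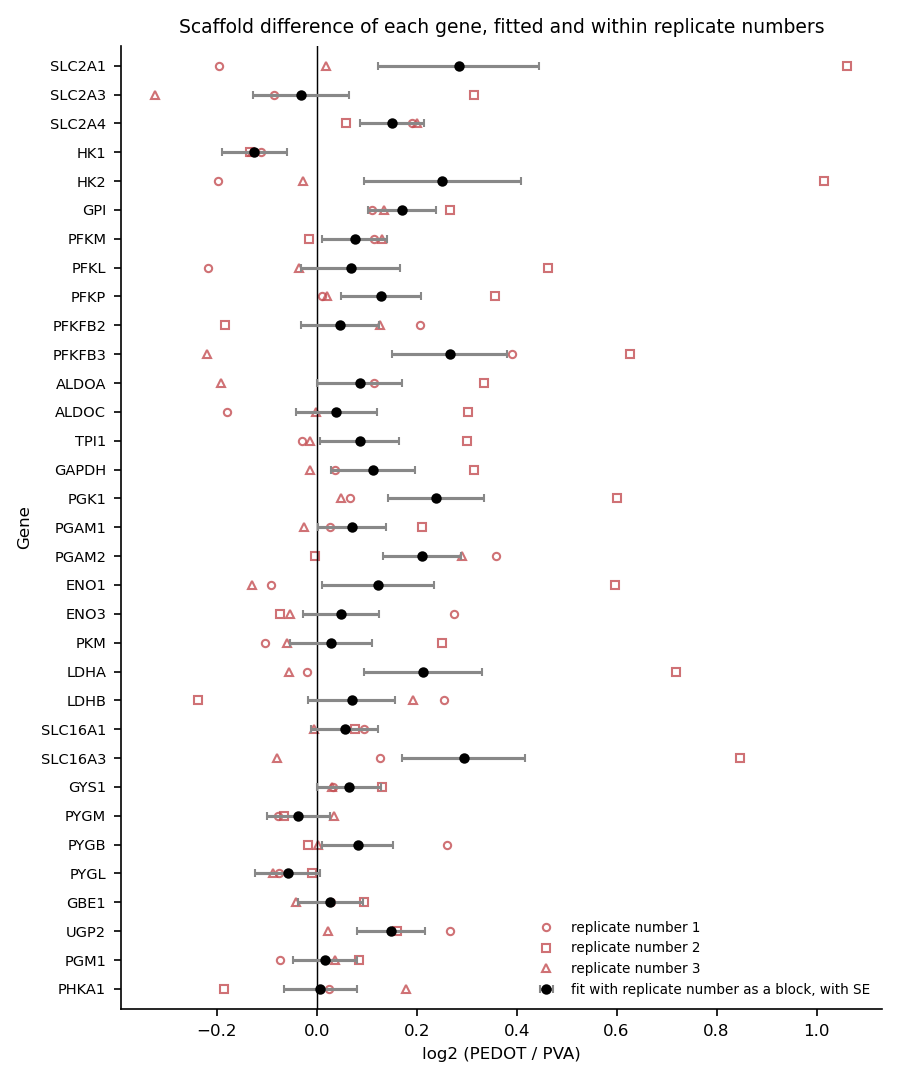
Scaffold difference of each gene as log2 (PEDOT / PVA): the black point and bar are the fit with replicate number as a block and its SE, and the open symbols are the differences within replicate numbers 1, 2 and 3. For SLC2A1, HK2, LDHA, PGK1 and SLC16A3 the difference of number 2 (square) lies far to the right of those of numbers 1 and 3.

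GPI was the only member whose 3 PEDOT sums did not overlap its 3 PVA sums (1 of 33, against 4.6% of all genes). GPI, the isomerase that turns glucose 6-phosphate into fructose 6-phosphate (chromosome 19, 34359480 to 34402413, plus strand), stood at 751, 666 and 772 CPM on PVA in replicates 1, 2 and 3 and at 811, 801 and 847 on PEDOT. Every PEDOT sum was above every PVA sum, by a log2 difference of 0.17 ± 0.07 (SE) in the paired fit, with an unadjusted p of 0.027 and an adjusted p of 0.523 (edgeR). Single libraries of GPI overlapped, with 857 CPM in library 1 of PVA 3 and 754 CPM in library 1 of PEDOT 2. In 5 of the biological replicates its technical libraries differed by more than this scaffold difference, by up to 0.35 on the log2 scale. PGAM2 had the smallest paired p of the members, at a log2 difference of 0.21 ± 0.08 and an adjusted p of 0.454.

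Members of the scaffold comparison passed the test under some other settings of the paired fit. With no low-count filter beyond a single count, PGK1, SLC16A3 and SLC2A1 were called (3 of 33, against 0.98% of all genes). Without replicate number 1 the calls were HK2 and SLC2A1 (2 of 33, against 0.798%), and without number 3 they were HK2, PFKFB3, SLC16A3 and SLC2A1 (4 of 33, against 1.31%). Without library 1 of PVA 3 PFKFB3 was called (1 of 33, against 0.169%). Without number 2 none was called, and SLC2A1, HK2 and LDHA then had log2 differences of -0.09, -0.11 and -0.04, so their positive sign rested on number 2.

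More of the 33 genes were called between replicate numbers than between scaffolds. The edgeR test of both replicate-number terms called 17 of 33, against 31.8% of all genes. Of these, 7 were higher in numbers 2 and 3 than in number 1 (SLC2A4, PFKM, PFKFB2, PGAM2, LDHB, PYGM and PYGB, against 11.5% of all genes), 8 were lower (SLC2A1, HK2, ALDOC, GAPDH, PGK1, ENO1, LDHA and PYGL, against 12.5%), and SLC2A3 and GBE1 had mixed signs (2 of 33, against 7.79%). Among the 10 muscle or heart isoforms 6 were called higher and 1, HK2, lower. Among the 13 other isoforms of the same families 1, PYGB, was called higher, 5 lower and 1, SLC2A3, with mixed signs. The number is a label of these samples, not a treatment.

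Markers of cell types moved with the replicate number too. The summed level of 6 cardiomyocyte markers was 52416 to 59779 CPM in the sums numbered 1 and 69043 to 81138 in the other 4 sums, and 6 of 6 were called, 5 of them higher in both numbers. The summed fibroblast markers were at 2826 to 5158 CPM in number 1 and at 619 to 2767 in the others, and COL1A1 and COL3A1 made up most of each sum. All 6 were called: DCN, LUM, COL1A1 and COL3A1 lower in both numbers, POSTN higher (log2 differences 1.55 ± 0.13 and 0.26 ± 0.13) and PDGFRA with mixed signs (-0.22 ± 0.13 and 0.97 ± 0.13). Smooth muscle markers were at 1679 to 2044 and 910 to 1832 CPM, with 4 of 5 called lower. Proliferation markers summed to 61.1 to 144 CPM in number 1 and 95.8 to 177 in the others, and MKI67 and TOP2A (2 of 4) were called. Their log2 differences were 0.08 ± 0.23 and 0.07 ± 0.19 for number 2, within the SE, and 0.72 ± 0.23 and 0.94 ± 0.19 for number 3. On PVA, MKI67 was highest in number 1 (62.6, 49.0 and 61.1 CPM in numbers 1, 2 and 3). Of the endothelial markers 0 of 5 were called. Neural markers summed to 14.04 to 21.1 CPM in number 1 against 3.64 to 11.2, and epithelial and endodermal markers to 14.003 to 14.36 against 3.39 to 7.95. Skeletal muscle markers summed to at most 2.43 CPM and pluripotency markers to at most 0.538 CPM in any sum. The part of these markers in the gene differences was not tested.

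**Figure D3:**
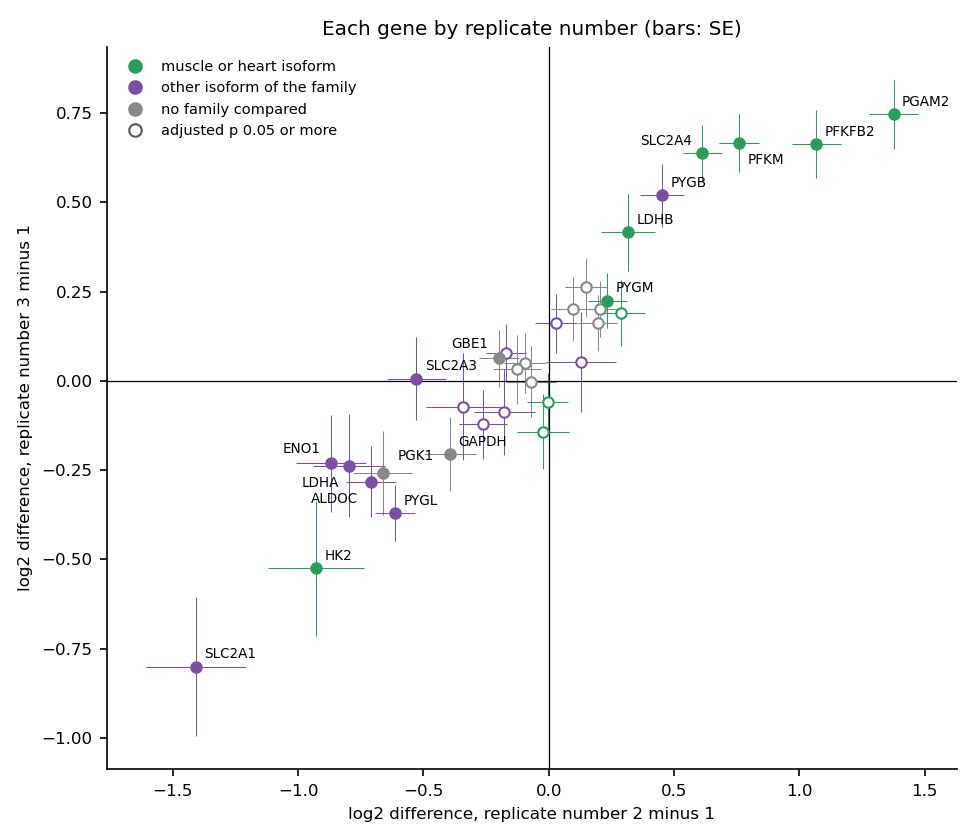
Log2 difference of each gene between replicate numbers 2 and 1 (horizontal) and 3 and 1 (vertical), with SE bars; filled points passed the edgeR test of replicate number at an adjusted p of 0.05. Of the filled points, the muscle or heart isoforms (green) lie to the upper right, except HK2, and the other isoforms (purple) to the lower left, except PYGB, at the upper right, and SLC2A3, whose vertical value is close to the zero line.

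The promoters of 4 genes called by replicate number are shown. Of the 33 members 28 had promoter windows in the RefSeq table (GRCh38.p14), 57 windows in all; the 250 bases before each start were searched for ACGTG on both strands (CACGT where read on the printed strand, and both overlap within CACGTG). Of all 35116 windows 18.5% held a match, as did 18 of the 57 member windows (31.6%). Several windows can belong to 1 gene and overlap, so they are not separate units. Printed 5′ to 3′ with matches in capitals are PGK1 and LDHA, called lower in numbers 2 and 3, and SLC2A1 and PGAM2, the called members with the largest log2 differences below and above 0, which hold no match. GCGTG, another form of the HIF core, was not searched. The motif was chosen after the expression values were seen, and a match is a description of letters only.
PGK1 (chrX:78103998-78104247, plus strand): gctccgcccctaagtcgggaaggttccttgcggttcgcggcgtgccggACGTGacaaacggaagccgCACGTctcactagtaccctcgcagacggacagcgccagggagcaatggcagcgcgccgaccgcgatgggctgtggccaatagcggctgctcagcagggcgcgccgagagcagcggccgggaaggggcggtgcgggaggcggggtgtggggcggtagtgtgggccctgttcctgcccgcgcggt
LDHA (chr11:18394313-18394562, plus strand): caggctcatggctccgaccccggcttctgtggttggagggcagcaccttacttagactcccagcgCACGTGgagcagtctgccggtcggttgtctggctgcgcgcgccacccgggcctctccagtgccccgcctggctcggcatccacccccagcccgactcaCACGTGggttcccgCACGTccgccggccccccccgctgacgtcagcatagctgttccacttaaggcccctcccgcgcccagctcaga
SLC2A1 (chr1:42958869-42959118, minus strand): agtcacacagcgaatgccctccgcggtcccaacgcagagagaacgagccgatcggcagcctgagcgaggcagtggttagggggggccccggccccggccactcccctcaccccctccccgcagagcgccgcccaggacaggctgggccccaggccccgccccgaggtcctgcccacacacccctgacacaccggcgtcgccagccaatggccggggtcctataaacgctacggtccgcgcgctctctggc
PGAM2 (chr7:44065568-44065817, minus strand): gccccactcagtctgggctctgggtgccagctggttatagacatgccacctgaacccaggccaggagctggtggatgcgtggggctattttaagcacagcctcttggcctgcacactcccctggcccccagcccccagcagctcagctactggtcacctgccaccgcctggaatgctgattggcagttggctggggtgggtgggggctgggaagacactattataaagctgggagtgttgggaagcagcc

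LDHA had 5 matches in this window and PGK1 had 2. A second LDHA window (chr11:18396101-18396350) held no match. Of the other members called lower in numbers 2 and 3, whose windows are not shown, HK2, ALDOC and GAPDH held matches and ENO1 and PYGL held none. Of the 4 members called higher that had windows, PFKM held a match. Matches also stood in GBE1, called with mixed signs, and in members not called by number. The latter were GPI, PFKP, PFKFB3, ALDOA, TPI1, SLC16A3, UGP2 and PGM1. The capitals of LDHA hold the full CACGTG at 2 places, where a match on each strand overlaps.

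At the entry of the pathway, SLC2A1 and HK2 had the widest ranges of the members over the 6 sums. They ranged 4.20-fold and 2.97-fold, with PGAM2 next at 2.94-fold. The transporters SLC2A3 and SLC2A4 and the hexokinase HK1 ranged less, 1.81-fold, 1.78-fold and 1.30-fold. SLC2A1 (chromosome 1, 42925375 to 42958868, minus strand), the basal transporter of most cells, stood at 330, 78.5 and 177 CPM on PVA in replicates 1, 2 and 3 and at 288, 164 and 180 CPM on PEDOT. Both sums numbered 1 were above the other 4, and PVA 2 was by far the lowest. Its level was 2.65-fold lower in number 2 than in number 1 (log2 difference -1.41 ± 0.20) and 1.74-fold lower in number 3 (-0.80 ± 0.19), with an adjusted p of 0.000257 (edgeR). The call did not hold on the lower-numbered technical libraries (adjusted p = 0.0702) or without library 3 of PEDOT 1 (0.0731). The difference of number 3 depended on the library: it was -0.09 with the lower-numbered and -2.01 with the higher-numbered technical libraries, and -1.40 without library 1 and -0.46 without library 3 of PEDOT 3.

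SLC2A4, the transporter that insulin brings to the surface of muscle cells, went the other way. It stood at 74.4, 119 and 115 CPM on PVA and at 84.9, 124 and 133 CPM on PEDOT. The sums numbered 1 were the lowest on each scaffold, with log2 differences of 0.61 ± 0.08 for number 2 and 0.64 ± 0.08 for number 3 (adjusted p = 3.17e-05, edgeR). SLC2A4 was also higher on PEDOT in 3 of 3 pairs, by 0.15 ± 0.06 in the paired fit (adjusted p = 0.551). SLC2A3, a high-affinity transporter, was at 429, 257 and 465 CPM on PVA and at 404, 320 and 372 CPM on PEDOT, with number 2 the lowest on both scaffolds and numbers 1 and 3 overlapping. Its call (adjusted p = 0.00386, edgeR) was lost with DESeq2 (0.139), with the higher-numbered technical libraries alone (0.0608) and without library 3 of PEDOT 1 or library 1 of PEDOT 3.

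HK2 (chromosome 2, 74834127 to 74893359, plus strand), the insulin-regulated hexokinase of muscle, was the only muscle or heart isoform called lower in numbers 2 and 3. It stood at 140, 47.2 and 92.6 CPM on PVA and at 122, 95.5 and 90.8 CPM on PEDOT. The sums numbered 1 were the highest on both scaffolds, with log2 differences of -0.93 ± 0.19 and -0.53 ± 0.19 for numbers 2 and 3 (adjusted p = 0.00564, edgeR). This call was lost with DESeq2 (adjusted p = 0.24), with a filter at a mean CPM of 5 (0.0502) and with the lower-numbered technical libraries alone (0.133), where number 3 turned to 0.16 above number 1. It was also lost without library 3 of PEDOT 1 (0.246) and without library 1 of PEDOT 3. With the higher-numbered libraries the difference of number 3 was -1.72. HK1, the ubiquitous hexokinase, was steadier, at 511, 458 and 544 CPM on PVA and at 473, 417 and 497 CPM on PEDOT, and lay lower on PEDOT in 3 of 3 pairs by a paired log2 difference of -0.12 ± 0.06 (adjusted p = 0.661).

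At the committing step the muscle enzyme differed and its paralogs did not pass the test. PFKM (chromosome 12, 48105139 to 48146404, plus strand), the muscle phosphofructokinase, stood at 190, 336 and 300 CPM on PVA and at 206, 333 and 328 CPM on PEDOT. The sums numbered 1 were well below the other 4, by 0.76 ± 0.08 and 0.67 ± 0.08 on the log2 scale (adjusted p = 1.09e-05, edgeR), and the scaffolds overlapped. The platelet-type PFKP was at 866, 639 and 793 CPM on PVA and at 872, 818 and 805 CPM on PEDOT, and the liver-type PFKL at 86.5, 60.1 and 76.8 CPM on PVA and at 74.4, 82.9 and 74.9 CPM on PEDOT; in both, PVA 2 was the lowest sum.

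PFKFB2, the heart form, and PFKFB3, the inducible form, make the sugar bisphosphate that activates phosphofructokinase. PFKFB2 was at 32.6, 78.2 and 53.2 CPM on PVA and at 37.7, 68.9 and 58.1 CPM on PEDOT. The order of the replicate numbers was the same on both scaffolds, with number 2 higher than number 1 by 2.1-fold (log2 difference 1.07 ± 0.10) and number 3 by 1.58-fold (0.66 ± 0.10, adjusted p = 4.39e-06, edgeR). PFKFB3 was at 48.4, 48.4 and 61.2 CPM on PVA and at 63.4, 74.7 and 52.6 CPM on PEDOT, and the order of the numbers differed between scaffolds.

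Aldolases split the sugar into the triose phosphates that TPI1 interconverts. ALDOC, the isoform known from brain, stood at 263, 136 and 204 CPM on PVA and at 232, 168 and 204 CPM on PEDOT. It was highest in number 1 on both scaffolds, with log2 differences of -0.71 ± 0.10 and -0.28 ± 0.10 for numbers 2 and 3 (adjusted p = 0.000305, edgeR). On the higher-numbered technical libraries number 2 differed by -0.46, and the call held (0.00236). ALDOA was at 59.7, 54.2 and 59.8 CPM on PVA and at 64.6, 68.4 and 52.4 CPM on PEDOT, and its sums overlapped between scaffolds and between numbers.

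In the ATP-yielding phase, PGK1 and ENO1 fell from number 1 to number 2 together with LDHA, while PGAM2 rose. PGK1 (chromosome X, 77910739 to 78129295, plus strand), which makes the first ATP of this phase, was at 1078, 562.5 and 907.5 CPM on PVA and at 1129, 853 and 938.5 CPM on PEDOT. The sums numbered 1 were the highest, with log2 differences of -0.66 ± 0.12 and -0.26 ± 0.12 (adjusted p = 0.00201, edgeR), and PEDOT was above PVA in 3 of 3 pairs by 0.24 ± 0.10 (paired adjusted p = 0.525). The difference of PGK1 between numbers 2 and 1 was -1.04 with the lower-numbered technical libraries and -0.31 with the higher-numbered ones, where the call was lost (adjusted p = 0.0505), and that between numbers 3 and 1 was -0.08 without library 2 of PVA 1. GAPDH ranged from 3206 to 4771 CPM over the 6 sums, with log2 differences of -0.39 ± 0.10 and -0.20 ± 0.10 by number (adjusted p = 0.0252), a call lost without library 2 of PVA 1, library 2 of PVA 2, library 3 of PEDOT 1 or library 1 of PEDOT 2. TPI1 ranged from 756.5 to 944 CPM and PKM from 1629 to 1937 CPM without a call.

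Phosphoglycerate mutase showed the largest rise of a muscle isoform. PGAM2 (chromosome 7, 44062727 to 44065567, minus strand), the muscle mutase, stood at 22.3, 65.6 and 38.3 CPM on PVA and at 28.6, 65.4 and 46.9 CPM on PEDOT. Number 2 was the highest and number 1 the lowest on both scaffolds, 2.6-fold (log2 difference 1.38 ± 0.10) and, for number 3, 1.68-fold (0.75 ± 0.10) above number 1, with an adjusted p of 3.73e-07 (edgeR). PGAM1, the form of most tissues, was at 251, 240 and 286 CPM on PVA and at 256, 278 and 280 CPM on PEDOT and was not called by number (adjusted p = 0.272); its scaffolds overlapped, and both sums numbered 3 were above both numbered 1.

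Of the enolases the ubiquitous form was called by replicate number and the muscle form was not. ENO1, the ubiquitous enolase, was at 1191, 509 and 1027 CPM on PVA and at 1118, 769 and 938.5 CPM on PEDOT. It was highest in number 1 on both scaffolds, with log2 differences of -0.87 ± 0.14 and -0.23 ± 0.14 (adjusted p = 0.000718, edgeR); the difference of number 3 was -0.09 without library 2 of PVA 1. ENO3, the muscle enolase, was at 227, 314 and 291 CPM on PVA and at 275, 299 and 281 CPM on PEDOT, lowest in number 1 on both scaffolds, with log2 differences of 0.29 ± 0.09 and 0.19 ± 0.09 that missed the threshold (adjusted p = 0.0675).

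Both lactate dehydrogenases were called by replicate number, in opposite directions, and neither lactate transporter was. LDHA (chromosome 11, 18394560 to 18408425, plus strand), whose enzyme favours lactate formation, stood at 1688, 743 and 1448 CPM on PVA and at 1666, 1223 and 1393 CPM on PEDOT. PVA 2 was by far the lowest sum, and the sums numbered 1 were the highest on each scaffold. The log2 differences by number were -0.80 ± 0.15 and -0.24 ± 0.14 (adjusted p = 0.00222, edgeR), and DESeq2 gave an adjusted p of 0.064. The difference of number 2 was -1.30 with the lower-numbered and -0.41 with the higher-numbered technical libraries, and that of number 3 was -0.07 without library 2 of PVA 1.

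LDHB, the heart-type lactate dehydrogenase, was at 37.3, 55.0 and 51.0 CPM on PVA and at 44.6, 46.7 and 58.3 CPM on PEDOT. Its sums numbered 1 were the lowest of each scaffold, by 0.32 ± 0.11 and 0.42 ± 0.11 on the log2 scale (adjusted p = 0.0196, edgeR), a call that failed when the higher-numbered technical libraries were used alone (0.135), without library 1 of PVA 3 and without library 2 of PEDOT 1. Of the lactate transporters, SLC16A1 (MCT1, known for lactate uptake in heart) was nearly level, at 586, 588 and 582 CPM on PVA and at 626, 619.9 and 580.1 CPM on PEDOT (adjusted p = 0.799 by number, edgeR). SLC16A3 (MCT4, the exporter of glycolytic cells) was at 142, 85.8 and 144 CPM on PVA and at 155, 154 and 136 CPM on PEDOT, with PVA 2 far below the other 5 sums and a paired scaffold difference of 0.29 ± 0.12 (adjusted p = 0.548, edgeR).

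Among the glycogen genes the phosphorylases changed with replicate number and most of the other enzymes did not pass the test. PYGB, the brain-type phosphorylase, was at 199.97, 302 and 314 CPM on PVA and at 239.7, 298 and 315 CPM on PEDOT, lowest in number 1 on both scaffolds, by 0.45 ± 0.09 and 0.52 ± 0.09 (log2, adjusted p = 0.000755, edgeR). PYGL, the liver-type phosphorylase, was at 66.3, 42.4 and 51.4 CPM on PVA and at 62.9, 42.1 and 48.4 CPM on PEDOT, with the opposite order, by -0.61 ± 0.08 and -0.37 ± 0.08 (adjusted p = 0.000116). PYGM, the muscle phosphorylase, was at 217, 255 and 244 CPM on PVA and at 206, 243 and 250.1 CPM on PEDOT.

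The call of PYGM by replicate number was marginal, at log2 differences of 0.23 ± 0.08 and 0.22 ± 0.08 and an adjusted p of 0.0497 (edgeR). It held in 4 of 8 other settings and in 5 of 12 fits that left out 1 library. The branching enzyme GBE1 ranged from 275 to 345 CPM (adjusted p = 0.046) and kept its call in 5 of 8 settings and 3 of 12 such fits. Glycogen synthase GYS1 (208 to 254 CPM), UGP2, which makes UDP-glucose (222 to 294 CPM), the phosphoglucomutase PGM1 (163 to 197 CPM) and PHKA1, the muscle regulatory subunit of phosphorylase kinase (116 to 142 CPM), were not called. Of the 17 members called by number, SLC2A4, PFKM, PFKFB2, ALDOC, PGAM2, ENO1, PYGB and PYGL were called in all 8 other settings and all 12 such fits.

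The muscle or heart isoforms and the other isoforms of their families were set side by side as 10 shares. Each share is the muscle or heart isoform's percentage of its family in counts per kilobase. No share passed the test between scaffolds: the exact permutation test over the 20 assignments of 6 sums, two-sided, gave raw p-values from 0.4 to 1.0 and an adjusted p of 1.0 for all 10 shares, where 0.1 is the smallest p that 3 against 3 allow. SLC2A4 made up 21.4% ± 10.99 (SD, n = 3) of the 3 glucose transporters on PVA and 21.4% ± 6.52 on PEDOT. HK2 made up 15.9% ± 6.38 of the hexokinases on PVA and 19.1% ± 2.68 on PEDOT, and PFKM 20.9% ± 6.99 and 20.04% ± 4.67 of the phosphofructokinases. The 2 scaffolds overlapped in each of these.

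The remaining shares ran from a few percent to most of the family. PFKFB2 was 37.5% ± 10.6 of the PFKFB pair on PVA and 34.0% ± 6.96 on PEDOT (n = 3 each), PGAM2 31.8% ± 12.3 and 33.6% ± 8.19 of the mutases, and ENO3 29.1% ± 12.4 and 27.2% ± 4.56 of the enolases. SLC16A1 was 88.9% ± 2.72 and 87.4% ± 0.344 of the lactate transporters, and PYGM 41.5% ± 2.45 and 39.99% ± 0.587 of the phosphorylases. ALDOA at 17.2% ± 4.02 and 17.5% ± 3.70 and LDHB at 7.99% ± 4.52 and 6.70% ± 1.39 are understated by the shared exons. With those exons left out of the length, a choice made after the data were seen, the scaffold difference was 0.55 percentage points for ALDOA and -1.71 for LDHB.

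By replicate number the shares were described only, with no test. Over numbers 1, 2 and 3 the mean share of SLC2A4 was 12.6%, 29.4% and 22.2%, that of PFKM 14.2%, 25.1% and 22.1%, and that of PGAM2 23.3%, 43.5% and 31.3%. ENO3 went from 20.9% to 37.5% and 26.1%, and LDHB from 4.71% to 10.1% and 7.23%. PFKFB2 was at 27.6%, 42.5% and 37.1%, and ALDOA at 14.7%, 21.6% and 15.8%. HK2 went the other way, from 22.1% to 14.7% and 15.8%, while PYGM stayed between 39.4% and 41.8% and SLC16A1 between 87.4% and 89.6%. These means join unlike scaffolds. On PEDOT, number 3 was not below number 2 for PFKM (22.7% in number 2 and 22.8% in number 3), PFKFB2 (35.7% and 39.9%) and LDHB (7.17% and 7.81%). HK2 in number 2 was 9.89% on PVA and 19.6% on PEDOT. SLC2A4, ALDOA, PGAM2 and ENO3 were highest in number 2 on both scaffolds. Single libraries spanned more: LDHB was 3.57% in library 2 of PVA 1 and 20.4% in library 2 of PVA 2, and HK2 ran from 6.93% to 24.4%. Because shares of a family sum to 100%, a rise of 1 isoform's share and a fall of the other's are 1 observation.

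**Figure D4:**
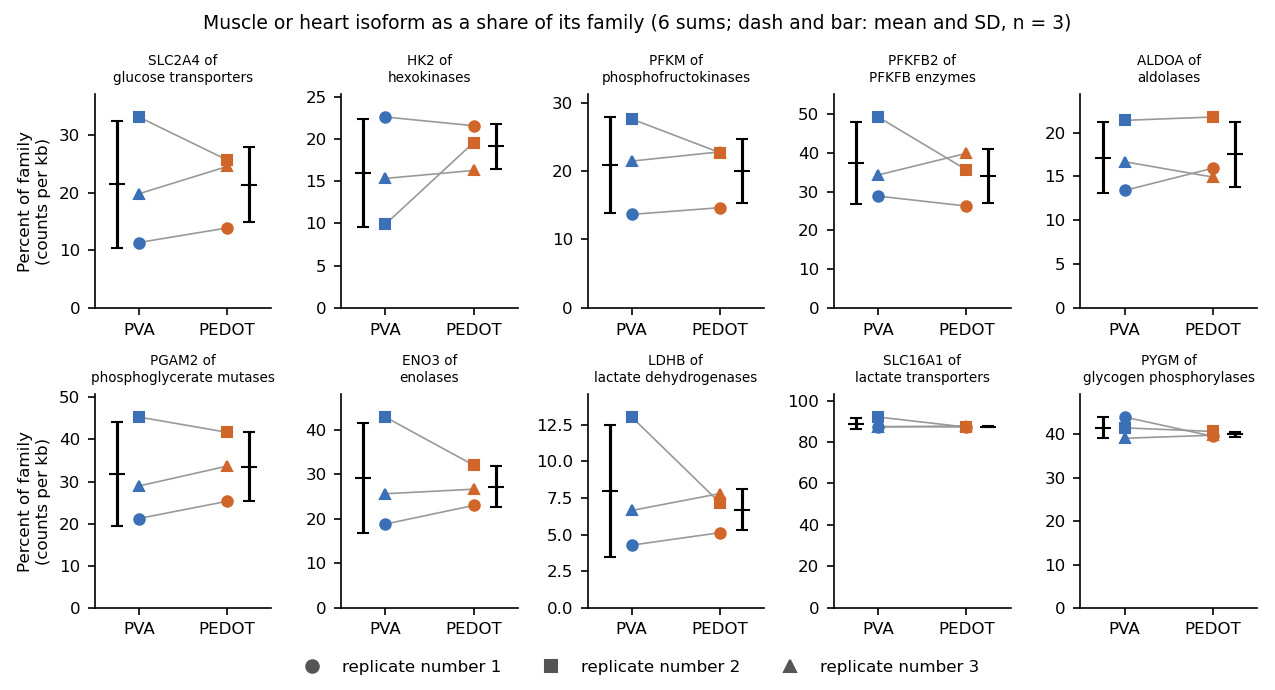
Share of the muscle or heart isoform in its family for 10 families, in percent of counts per kilobase, on PVA (blue) and PEDOT (orange); symbols give replicate numbers, grey lines join equal numbers, and the black dash and bar give the mean and SD of 3 sums. Number 1 (circle) is the lowest and number 2 (square) the highest on both scaffolds for PGAM2 and ENO3, and PVA 2 is the highest of the 6 for SLC2A4 and LDHB and the lowest for HK2.

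Technical libraries of the same biological replicate were unlike for some members and close for others. The largest of the 6 differences between technical libraries was over 2-fold for 4 of 33 (12.1%), against 5.47% of the 16027 genes with at least 10 counts in every library, and the median of the largest fold was 1.29 for the members and 1.24 for those genes. The lowest member count in any library was 513, with a counting error of 4.42%.

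SLC2A1 differed most, at 302 CPM in library 1 and 61.1 CPM in library 3 of PEDOT 3, a 4.94-fold difference. HK2 was close behind in the same libraries, at 150 and 33.4 CPM (4.48-fold). LDHA was at 410 and 992 CPM in libraries 2 and 3 of PVA 2 (2.42-fold), and PFKFB3 at 82.8 and 36.5 CPM in libraries 1 and 3 of PVA 3 (2.27-fold). These 4 genes and SLC16A3 (1.94-fold, 181 and 93.0 CPM in PEDOT 3) therefore have sums that average unlike libraries. The steadiest members were PYGB (1.08-fold at most), PFKM (1.098-fold) and PHKA1 (1.101-fold).

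The technical differences were shared by many members. The library that was higher for SLC2A1 was also the higher one in 6 of 6 replicates for HK2, PFKL, PFKP, PFKFB3, ALDOA and SLC16A3 (6 of the other 32 members) and in 5 of 6 for another 16. The higher-numbered library was higher for 32 of 33 members in PEDOT 1, for 27 in PVA 2 and for 23 in PEDOT 2. It was higher for only 7 in PVA 1, 3 in PEDOT 3 and 2 in PVA 3. Neither kind of count was made over all genes. Genes of the HIF pathway outside the members had a median log2 difference (higher-numbered minus lower-numbered library) of -0.30, 0.080 and -0.73 in PVA 1, 2 and 3 and of 0.34, -0.019 and -0.53 in PEDOT 1, 2 and 3. The members' median in the same order was -0.19, 0.23 and -0.26 on PVA and 0.21, 0.080 and -0.20 on PEDOT. Over all genes with at least 10 counts in every library it was -0.0026, 0.0019 and -0.0039 on PVA and 0.013, 0.012 and 0.0032 on PEDOT. What separates technical libraries is not stated in the labels, and its part in these differences was not tested.

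**Figure D5:**
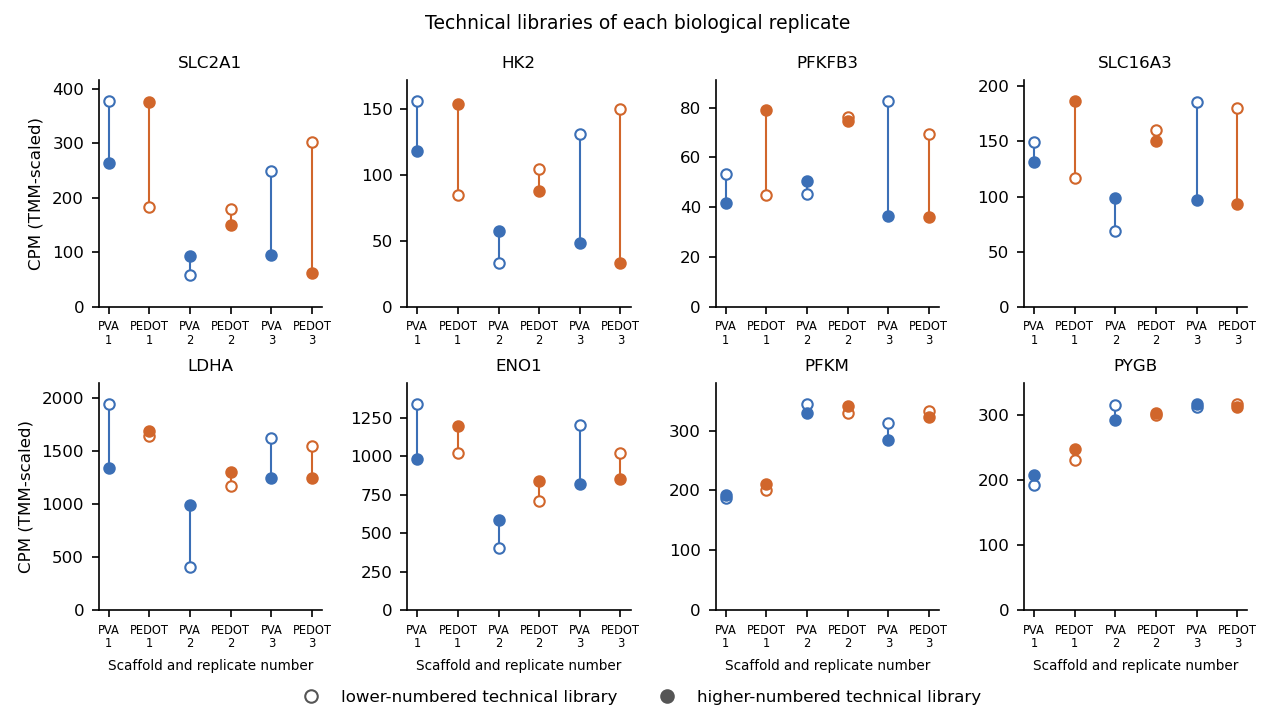
Levels in CPM of 8 genes in the lower-numbered (open) and higher-numbered (filled) technical library of each biological replicate, joined by a line, on PVA (blue) and PEDOT (orange). SLC2A1 and HK2 span up to 4.94-fold and 4.48-fold within a replicate, while the libraries of PFKM and PYGB nearly coincide and separate number 1 from numbers 2 and 3.

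The surrounding pathways were read from 6 lists of related genes. Of their 92 tested genes, 0 were called between scaffolds by edgeR in either fit, with 3 at an unadjusted p under 0.05 unpaired (0.892% of all genes) and 23 paired (8.32% of all genes). DESeq2 called 0 of them unpaired and 3 paired, PPP1R3C, NDRG1 and HIF1A. The glycogen list had 20 of 21 genes tested, 12 of 20 above 0 in the paired fit (48.8% of all genes, for each list) and a median log2 difference of 0.0069. Its 3 genes of smallest paired p were PPP1R3C, a subunit that directs protein phosphatase to glycogen (112 ± 17.8 CPM on PVA and 139 ± 4.83 on PEDOT, log2 difference 0.32 ± 0.07, adjusted p = 0.103, edgeR), PHKA2, the liver regulatory subunit of phosphorylase kinase (0.25 ± 0.06, adjusted p = 0.174), and PPP1R3B, a sister of PPP1R3C (0.22 ± 0.06, adjusted p = 0.229). PPP1R3C stood at 99.6, 103 and 132 CPM on PVA and at 136, 136 and 144 CPM on PEDOT, so its scaffolds did not overlap (4.6% of all genes). Among the related genes the scaffolds did not overlap for PPP1R3B and PDK1, higher on PEDOT, and PGD and G6PC3, lower on PEDOT, either.

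The HIF pathway list had 12 of 17 genes above 0 and a paired median of 0.21. NDRG1, a hypoxia-induced gene, was at 40.2, 11.2 and 19.5 CPM on PVA and at 50.5, 17.2 and 23.9 CPM on PEDOT, higher on PEDOT in each pair (0.40 ± 0.08, adjusted p = 0.0724, edgeR). HIF1A, the oxygen-regulated subunit itself, was at 496, 327 and 417 CPM on PVA and at 410, 225 and 365 CPM on PEDOT, lower on PEDOT in each pair (-0.34 ± 0.07, adjusted p = 0.105). DDIT4, an inhibitor of mTOR signalling, differed by 0.64 ± 0.16 (adjusted p = 0.174), but in number 3 it was lower on PEDOT (44.5 CPM) than on PVA (47.8 CPM). Technical libraries of 1 replicate differed by up to 3.98-fold for NDRG1, 1.30-fold for HIF1A and 3.36-fold for DDIT4.

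Among glycolytic paralogs and sensors (14 of 21 tested, 8 of 14 above 0) the smallest paired p belonged to the neuronal enolase ENO2 (0.38 ± 0.11, adjusted p = 0.272), TXNIP, a brake on glucose uptake (-0.16 ± 0.07, 0.558), and PFKFB4 (0.47 ± 0.22, 0.595). Of the pyruvate and lactate list (17 of 18 tested, 8 above 0) they belonged to PDK1, which inhibits pyruvate dehydrogenase (0.34 ± 0.10, adjusted p = 0.263), the pyruvate carrier MPC1 (0.17 ± 0.08, 0.61) and GPT (0.34 ± 0.18, 0.679). In the pentose phosphate and hexosamine list (14 genes, 4 above 0) TKT and PGD both had -0.17 ± 0.06 (adjusted p = 0.454 for each) and OGT 0.15 ± 0.06 (0.576). In the list of shuttles that carry NADH equivalents into mitochondria (10 genes, 4 above 0) the 3 were GPD1L (0.10 ± 0.08), MDH2 (-0.06 ± 0.07) and GOT2 (-0.06 ± 0.07).

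By replicate number the shuttle list moved in 1 direction: 9 of 10 genes were called (31.8% of all genes), all 9 higher in numbers 2 and 3 than in number 1. GOT1, the cytosolic aspartate transaminase, had log2 differences of 0.55 ± 0.09 and 0.54 ± 0.09 (adjusted p = 0.000258, edgeR). The pyruvate and lactate list had 11 of 17 called, 7 higher and 1 lower, and the glycogen list 10 of 20, 6 higher and 3 lower. The HIF list had 10 of 17 called, 3 higher and 6 lower, with NDRG1 at -1.69 ± 0.10 and -1.06 ± 0.10 (adjusted p = 5.99e-08). The pentose and hexosamine list had 9 of 14 called, 1 higher and 3 lower, and the glycolytic paralogs 8 of 14, 3 higher and 3 lower. The other genes called in these lists had mixed signs.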

How the data were processed

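The values are raw counts as deposited, 1 column per library for 12 libraries with no scaling applied, made with featureCounts 2.0.1 in paired-end, reversely stranded mode on GENCODE release 33, per the file headers. Reads that match several genes were not counted under that command. The submitters' processing notes also name FastQC, STAR, DESeq2, edgeR and hg38; the STAR version is not given in the sources used here. Libraries held 19.12 to 30.95 M counts.

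Technical libraries were summed to 6 sums. edgeR 4.0.16 (R 4.3.3) was run with TMM scaling, filterByExpr (minimum count 10, total 15), the quasi-likelihood test and Benjamini-Hochberg adjustment over 21298 genes, without and with replicate number as a block, and for both replicate-number terms together. The SE is the log2 difference divided by the root of F. Code was tested on simulated data. Isoform shares used counts per kilobase of the deposited length and an exact permutation test. DESeq2 1.42.0, other scalings and filters, single technical libraries and left-out replicates were alternatives; leaving out each library and the length without shared exons were added after seeing the data.

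The members and lists were chosen with earlier results of these data known. Levels in each sum were given for members of isoform families, for the 12 called members of largest fold and for the 3 of smallest paired p; in each related list the 3 of smallest paired p were named. Other members are given by range. The labels do not say that numbers pair the samples; deviations from the scaffold means correlated at 0.678, 0.703 and 0.503 for equal numbers and at -0.609 to -0.00497 otherwise, so the numbers were taken to pair them. Overlaps of exons were read from the deposited coordinates, and shared coding bases from GENCODE 29. Promoter sequences are RefSeq's, GRCh38.p14.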

Additional observations from a re-analysis of the deposited data

How the results depend on the processing

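The count of members called between scaffolds was 0 in all 27 other settings of the unpaired fit, with a median log2 difference of 0.02 to 0.15. In the paired fit (replicate block) it was 0 in 19 of 23 settings; it was 3 with no low-count filter beyond a single count and 1 without library 1 of PVA 3, and leaving out 1 replicate number gave 0 to 4. The fits with 3 calls and with 4 calls had infinite prior degrees of freedom, so all genes shared 1 spread there, and a fit on 2 numbers has 1 residual degree of freedom. By replicate number 13 to 22 members were called over 20 settings.

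Leaving out 1 replicate turned the unpaired log2 difference of SLC2A4 (-0.043 to 0.32), PGK1 (-0.024 to 0.40), PGAM2 (-0.16 to 0.64), SLC2A1 (-0.26 to 0.72), HK2 (-0.17 to 0.56) and LDHA (-0.13 to 0.38), and the paired one of SLC2A1 (-0.089 to 0.54), HK2 (-0.11 to 0.49) and LDHA (-0.037 to 0.35). SLC2A1 was at -0.045 unpaired with the lower-numbered technical libraries alone. The scaffold difference of the isoform shares, in percentage points, ranged over left-out replicates from -5.11 to 5.79 for SLC2A4, -4.48 to 2.49 for PFKM, -7.84 to 2.37 for PFKFB2, -1.72 to 2.51 for ALDOA, -3.58 to 8.47 for PGAM2, -7.01 to 5.01 for ENO3, -3.14 to 1.24 for LDHB and -2.36 to 0.0497 for SLC16A1. The SLC2A4 share also turned to 0.12 without division by length and to 1.03 with the higher-numbered libraries, and the ALDOA share to -0.72 with the lower-numbered ones. The cause was not tested. Exact sign-flip tests within pairs gave p-values of 0.5 to 1.0 for the shares, where 0.25 is the smallest possible, so these could not pass 0.05 either. Every member had at least 513 counts in each library, the depth behind these values.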
